A study of Xenopus tropicalis with 15 samples.

Results

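The genes described here are 10 endothelial receptor and vessel genes, kdr, flt1, flt4, tek, tie1, aplnr, cdh5, pecam1, vwf and egfl7, measured in the amputated tail of wild-type Xenopus tropicalis tadpoles. They were chosen by name: each gene model of the deposited quantification whose symbol is on that list was taken, which gave 1 model per symbol and 10 of 34192 models in all. All 10 passed the filter on low counts, flt1 only through the libraries taken at amputation. RNA was sequenced in 15 libraries, 3 in each of 5 groups, from tadpoles whose posterior tail was removed under anaesthesia at NF stage 41, 3 days after fertilisation. The group called 0 hpa (hours post amputation) was untreated, and about 250 µm of tail just anterior to the amputation plane was taken. At 24 hpa the regenerating piece itself, again about 250 µm long, was taken from tadpoles kept at 23 °C. The control among them had been given the solvent DMSO at 0.1%, and the remaining groups 2-methoxyestradiol (2ME) at 5 µM, echinomycin at 0.5 µM and IWR-1 at 10 µM. A DMSO percentage is recorded for the control alone, so the solvent content of the compound groups is not given here. The study's title speaks of antagonists of Hif1a or of Wnt signalling; 2ME and echinomycin are known as inhibitors of the former and IWR-1 of the latter. Every group is labelled wild-type, and every animal, the 0 hpa group included, had its tail amputated. In the treatment label the number after IWR follows the replicate number (1, 2 and 3), whereas the design text names a single compound, IWR-1, and that name is used here for the 3 libraries. The labels do not say whether replicates came from separate clutches, animals or pools, so p-values measure the spread between these samples, which may be technical.

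Blood vessels are lined by endothelial cells, which read signals from the surrounding tissue through receptor tyrosine kinases. VEGF ligands act through the receptors encoded by kdr, flt1 and flt4, angiopoietins act through tek with tie1 as its partner receptor, and apelin peptides act through the G-protein-coupled receptor encoded by aplnr. In mouse and human, VE-cadherin (cdh5) and PECAM1 hold neighbouring endothelial cells together, von Willebrand factor (vwf) is stored in and released from them, and EGFL7 is a secreted protein laid down beside them. The level of these genes in bulk tissue depends on both the number of endothelial cells in the piece and the RNA made per cell, and fewer cells of a type and less RNA per cell cannot be told apart in these data.

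The libraries held 17.3 to 23.4 M estimated counts. The floor was set at 3 counts, which corresponded to 0.128 to 0.173 CPM, the unit of counts scaled to library size. These floors cover counting error only. Libraries of a group resembled each other closely, with Pearson correlations of log2 CPM across genes of 0.9837 to 0.9896. One library stood out in blood genes: the erythroid markers described at the end summed to 26368 CPM in 0 hpa replicate 1 and to 6331 and 8811 CPM in the other 0 hpa libraries. Without that library all 10 genes were still lower with DMSO than at 0 hpa, with log2 ratios of -2.77 for pecam1 to -0.61 for egfl7. Markers of skeletal muscle, notochord, epidermis and neural tube were found in every group. Muscle markers summed to 20691 to 23164 CPM at 0 hpa and to 1627 to 2148 CPM with DMSO, and the part of this difference in the results below was not tested. Levels are given below as CPM after scaling by TMM factors, and differences as log2 ratios ± SE from edgeR's quasi-likelihood test over 18823 gene models. A gene is called higher or lower at a Benjamini-Hochberg adjusted p under 0.05. DMSO, time and position along the tail differed together between 0 hpa and the DMSO group, and cannot be told apart.

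In the regenerating tissue all 10 genes were lower than in the tail at amputation, and echinomycin and IWR-1 left several of them higher than DMSO did. Together the 10 genes summed to 195 ± 3.06 CPM at 0 hpa (SD, n = 3) and to 62.4 ± 5.02 CPM with DMSO, which is 31.9% of the 0 hpa mean. The sum was 59.3 ± 8.17 CPM with 2ME, 103 ± 8.28 CPM with echinomycin and 77.5 ± 5.54 CPM with IWR-1, or 30.3%, 52.6% and 39.6% of the 0 hpa mean. The 3 echinomycin libraries, at 104, 94.1 and 111 CPM, and the 3 IWR-1 libraries, at 71.3, 79.2 and 82 CPM, lay above the 3 DMSO libraries at 65.2, 65.5 and 56.6 CPM. The 2ME libraries, at 68.7, 54.7 and 54.4 CPM, fell on both sides of the DMSO libraries. A sum of CPM gives more weight to longer models. Per length, as TPM, the sum was 65.7 ± 3.88 at 0 hpa and 21.2 ± 1.21 with DMSO. It was 22.8 ± 3.67 TPM with 2ME, 36.6 ± 3.24 with echinomycin and 29.6 ± 4.46 with IWR-1. The deposited TPM values are not scaled by TMM factors, which were 0.913 to 0.959 with DMSO and 1.03 to 1.05 with 2ME. The means of 2ME and DMSO stood in the reverse order as TPM, and their libraries overlapped on both measures. The measures differ in scaling as well as in length, and the part of each in this reversal was not tested.

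DMSO against 0 hpa compares regenerating tissue in solvent with the tail at amputation. All 10 genes fell in this comparison, where 30.8% of all tested models were called lower. The filter kept flt1 through its 0 hpa libraries alone, so its fall adds no weight to the counts given here. In each of the 10 every DMSO library was below every 0 hpa library, a separation found in 32.6% of all tested models, and 9 of the 10 were lower by 2-fold or more, against 14.5% of all tested models. The median log2 ratio of the 10 was -1.95, and that of all tested models was 0.001. The remaining models called in this comparison, 32.2% of those tested, were higher.

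The compounds were each compared with DMSO, and the 3 comparisons share the DMSO libraries. With 2ME, egfl7 alone was called, and it was lower; 14% of all tested models were called higher, 16.5% were called lower, and 24.9% lay lower without overlap. By edgeR's test 0 of the 10 were higher with 2ME. Of the 10, 3 had an unadjusted p under 0.05 (vwf, aplnr and egfl7), a share not counted for all models. DESeq2 called 1 of the 10 higher and limma 2. In either direction DESeq2 called 5692 of 18823 tested models and limma 5490 of 15693. With echinomycin 8 of the 10 genes rose and none was called lower, against 24.6% and 27% of all tested models; the same 8 lay above DMSO without overlap, as did 27.4% of all tested models. With IWR-1, 6 of the 10 rose and egfl7 fell, against 19.9% and 22.4% of all tested models. Of those 6, 5 lay above DMSO without overlap, as did 24.7% of all tested models, and egfl7 lay below, as did 27.5%. The median log2 ratio of the 10 against DMSO was -0.01 with 2ME, 0.85 with echinomycin and 0.44 with IWR-1, beside -0.021, 0.014 and -0.016 for all tested models.

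**Figure D1:**
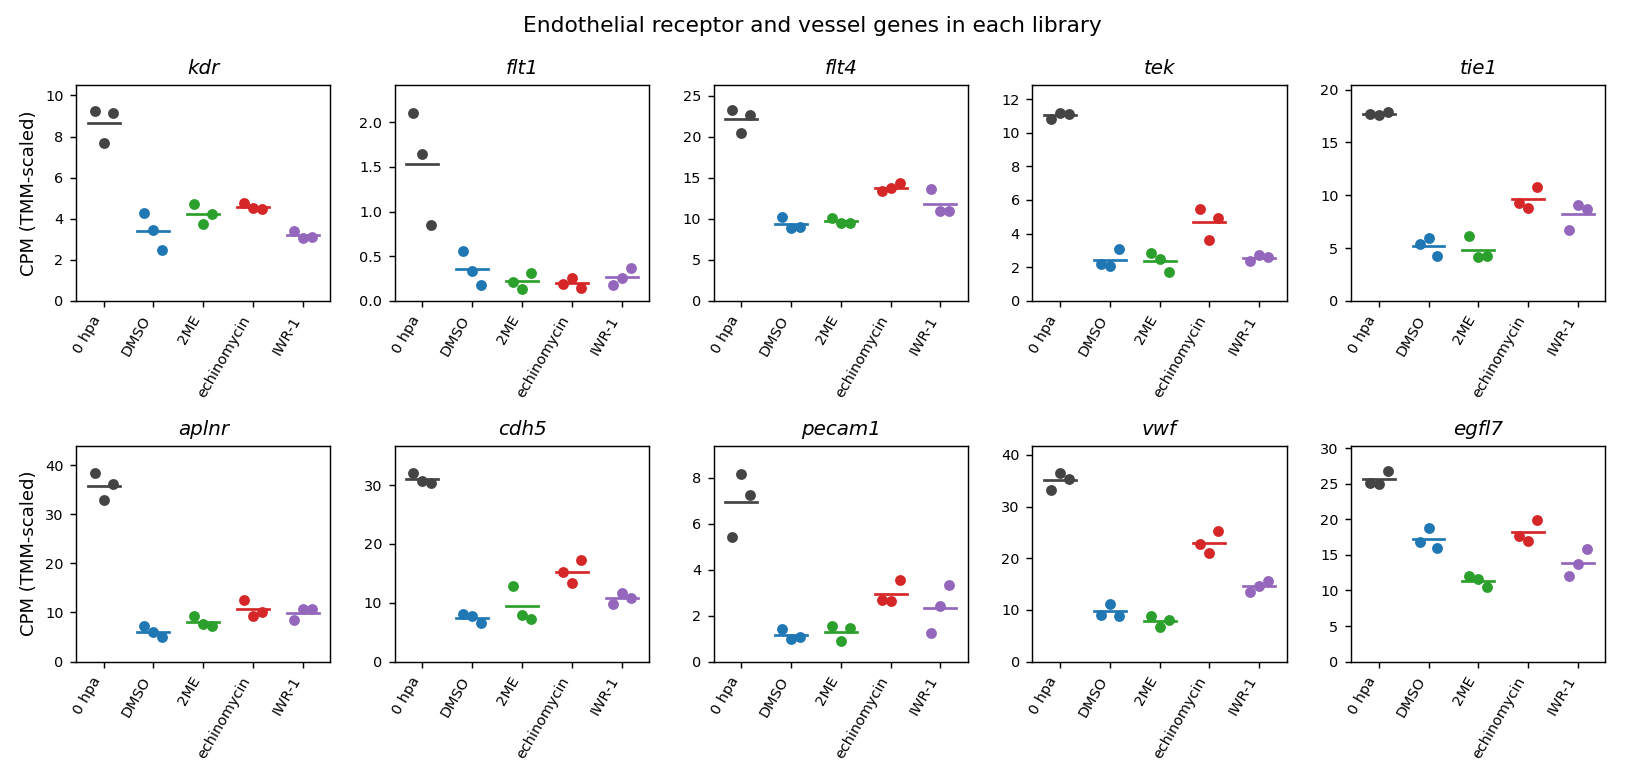
CPM after TMM scaling (vertical axes, from 0, each with its own range) of the 10 genes in each library, with 1 point per library and a line at the mean of each group of 3. In each gene the 3 libraries at 0 hpa are above the 12 libraries at 24 hpa, and the echinomycin libraries of vwf, at 21.1 to 25.2 CPM, are well above those with DMSO, at 8.87 to 11.2 CPM.

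The VEGF receptors were the first group examined. The gene kdr encodes VEGFR2, the receptor that in mouse and human carries most of the growth signal of VEGFA in endothelial cells. It stood at 9.22, 7.69 and 9.13 CPM at 0 hpa, 4.27, 3.46 and 2.46 with DMSO, 4.73, 3.74 and 4.25 with 2ME, 4.76, 4.52 and 4.47 with echinomycin, and 3.39, 3.04 and 3.13 with IWR-1. All 12 libraries at 24 hpa were thus below the lowest at 0 hpa, the echinomycin libraries were just above the highest DMSO library, and the 2ME and IWR-1 libraries overlapped with DMSO. From 0 hpa to DMSO kdr fell by 1.36 ± 0.17 on the log2 scale (adjusted p = 2.34e-06). With echinomycin it was higher than with DMSO by 0.44 ± 0.17 (adjusted p = 0.0418), the smallest of the 8 rises. That call held in 8 of 15 alternatives, with adjusted p from 0.00438 to 0.183, and was lost on leaving out DMSO replicate 2 or 3 or any 1 echinomycin library, without a filter and with only the 2 groups fitted; without DMSO replicate 3 the ratio was 0.27 (adjusted p = 0.183). Against DMSO kdr gave 0.33 with 2ME (95% interval -0.06 to 0.72, adjusted p = 0.163) and -0.08 with IWR-1 (-0.48 to 0.32, adjusted p = 0.745, and 0.08 against library size alone), neither called. The 2ME ratio passed against library size alone (0.47, adjusted p = 0.0444), by limma (0.38, adjusted p = 0.0278) and without DMSO replicate 1 (0.53, adjusted p = 0.0378), and in no other alternative.

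The gene flt4 encodes VEGFR3, the receptor of VEGFC and VEGFD, which marks lymphatic and sprouting endothelium in mouse. Its libraries read 23.2, 20.5 and 22.6 CPM at 0 hpa, 10.2, 8.85 and 9.05 with DMSO, 10.1, 9.53 and 9.5 with 2ME, 13.4, 13.7 and 14.3 with echinomycin, and 13.6, 11 and 10.9 with IWR-1. Both the echinomycin and the IWR-1 libraries were above every DMSO library, and the 2ME libraries lay among them. It fell by 1.24 ± 0.1 from 0 hpa to DMSO (adjusted p = 1.74e-08). It rose by 0.56 ± 0.1 with echinomycin (adjusted p = 2.55e-04) and by 0.34 ± 0.1 with IWR-1 (adjusted p = 0.015), and was not called with 2ME (0.05, 95% interval -0.18 to 0.29). The IWR-1 call was lost without IWR-1 replicate 1, the highest of the 3, where the ratio was 0.22 (adjusted p = 0.0918), and without DMSO replicate 2 (0.31, adjusted p = 0.0547).

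The gene flt1 encodes VEGFR1, which in mouse binds VEGFA tightly and limits the signal that reaches VEGFR2. It was close to the limit of detection: its estimated counts were 33, 31 and 14 at 0 hpa and 3 to 10 in every library at 24 hpa. As CPM this was 2.1, 1.64 and 0.852 at 0 hpa and 0.562, 0.337 and 0.179 with DMSO. With the compounds it ranged from 0.137 to 0.307 CPM for 2ME, 0.149 to 0.261 for echinomycin and 0.176 to 0.373 for IWR-1. The 0 hpa libraries were apart from all others, and the 4 groups at 24 hpa overlapped. With DMSO flt1 fell by 2.11 ± 0.45 against 0 hpa (adjusted p = 6.06e-04). The gene passed the filter only through its 0 hpa libraries, the group where it is high, so the filter itself favoured a fall. It was not called with any compound. The 95% intervals against DMSO were -1.90 to 0.57 for 2ME, -2.06 to 0.48 for echinomycin and -1.58 to 0.82 for IWR-1. At this depth a 2-fold fall lay inside each interval, and a 2-fold rise lay outside. A further model with a similar symbol, kdrl, is not among the 10 and was looked at after its values were seen. It was higher with DMSO, at 52, 42.8 and 50 CPM, than at 0 hpa, at 30.8, 41.2 and 36.9 CPM, a log2 ratio of 0.41 ± 0.092 (adjusted p = 9.94e-04). With 2ME kdrl read 50.8, 51.6 and 54.1 CPM, overlapping with DMSO. Its echinomycin libraries, at 41, 36.4 and 39.3 CPM, lay below every DMSO library, unlike those of kdr and flt4. Its IWR-1 libraries, at 53, 56.1 and 53.6 CPM, lay above every DMSO library.

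The angiopoietin receptors tek and tie1 came next. The gene tek encodes TIE2, the receptor of angiopoietins, which in mouse keeps vessels stable and their support cells attached. Its values were 10.8, 11.2 and 11.1 CPM at 0 hpa, 2.19, 2.07 and 3.09 with DMSO, 2.85, 2.46 and 1.71 with 2ME, 5.46, 3.61 and 4.92 with echinomycin, and 2.38, 2.7 and 2.61 with IWR-1. The echinomycin libraries alone were above all DMSO libraries, and the 2ME and IWR-1 libraries were spread around the DMSO mean. With DMSO tek fell by 2.16 ± 0.2 against 0 hpa (adjusted p = 5.34e-08), and with echinomycin it rose against DMSO by 0.91 ± 0.2 (adjusted p = 0.00123). Its ratios with 2ME (-0.07, or 0.06 against library size alone, 95% interval -0.55 to 0.41) and IWR-1 (0.06, -0.42 to 0.53) were not called.

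The gene tie1 encodes an orphan receptor that pairs with TIE2 and, in mouse, is needed for intact vessels and lymphatics. It read 17.7, 17.6 and 17.9 CPM at 0 hpa, 5.39, 5.92 and 4.26 with DMSO, 6.15, 4.15 and 4.25 with 2ME, 9.29, 8.79 and 10.8 with echinomycin, and 6.74, 9.11 and 8.68 with IWR-1. Unlike tek, tie1 was above every DMSO library in both the echinomycin and the IWR-1 libraries. It fell by 1.77 ± 0.16 from 0 hpa to DMSO (adjusted p = 5.23e-08), rose by 0.89 ± 0.16 with echinomycin (adjusted p = 2.45e-04) and rose by 0.66 ± 0.16 with IWR-1 (adjusted p = 0.00405). The 2ME ratio of -0.09 (95% interval -0.47 to 0.29, 0.05 against library size alone) was not called.

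The apelin receptor gene aplnr is active in sprouting and venous endothelium, and in frog embryos the receptor is known under the name APJ or msr. It had the highest level per length of the 10 genes at 0 hpa. Its libraries gave 38.3, 32.9 and 36.1 CPM at 0 hpa, 7.25, 6.06 and 4.97 with DMSO, 9.21, 7.57 and 7.18 with 2ME, 12.6, 9.26 and 10.1 with echinomycin, and 8.37, 10.7 and 10.7 with IWR-1. The echinomycin and IWR-1 libraries were all above the highest DMSO library, while the lowest 2ME library was just below it. From 0 hpa to DMSO aplnr fell by 2.56 ± 0.15 (adjusted p = 2.82e-10), a 5.9-fold difference. It rose by 0.81 ± 0.16 with echinomycin (adjusted p = 3.80e-04) and by 0.71 ± 0.16 with IWR-1 (adjusted p = 0.00155). With 2ME the ratio was 0.40 (95% interval 0.05 to 0.75, adjusted p = 0.0671), which was not called and passed in 4 of 15 alternatives, with adjusted p from 0.0171 to 0.264.

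The junction genes followed. VE-cadherin, the product of cdh5, is the adhesion protein of endothelial junctions, and in Xenopus it is also used as an endothelial marker. It stood at 32.1, 30.7 and 30.3 CPM at 0 hpa, 8.04, 7.79 and 6.63 with DMSO, 12.9, 7.89 and 7.31 with 2ME, 15.2, 13.4 and 17.2 with echinomycin, and 9.87, 11.6 and 10.8 with IWR-1. The echinomycin and IWR-1 libraries were above every DMSO library, and 2ME replicate 1 was above the other 2ME libraries. With DMSO cdh5 fell by 2.05 ± 0.17 against 0 hpa (adjusted p = 1.35e-08). With echinomycin it rose by 1.03 ± 0.17, a 2.04-fold difference (adjusted p = 8.49e-05), and with IWR-1 by 0.53 ± 0.17 (adjusted p = 0.0209). The IWR-1 call held in 12 of 15 alternatives, and was lost without DMSO replicate 3 (0.45, adjusted p = 0.0748), IWR-1 replicate 2 (0.47, adjusted p = 0.0743) or IWR-1 replicate 3 (0.52, adjusted p = 0.0507). Its 2ME ratio of 0.33 (95% interval -0.06 to 0.71, adjusted p = 0.163) was not called; it was 0.03 without 2ME replicate 1 and 0.48 without 2ME replicate 3 (adjusted p = 0.0495).

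PECAM1, also called CD31, sits at endothelial junctions and, in mouse and human, on platelets and leukocytes as well. The gene pecam1 read 5.41, 8.17 and 7.24 CPM at 0 hpa, 1.4, 0.962 and 1.08 with DMSO, 1.55, 0.912 and 1.45 with 2ME, 2.68, 2.65 and 3.53 with echinomycin, and 1.23, 2.4 and 3.31 with IWR-1. The IWR-1 libraries differed most among themselves, and the lowest of them was inside the DMSO range, while the echinomycin libraries were all above it. From 0 hpa to DMSO pecam1 fell by 2.61 ± 0.3 (adjusted p = 1.13e-06), the largest fall of the 10. It rose by 1.37 ± 0.32 with echinomycin (adjusted p = 0.0018), the largest of the 8 rises, and by 1.01 ± 0.32 with IWR-1 (adjusted p = 0.0187). Leaving out 1 library ended the IWR-1 call in 3 cases: IWR-1 replicate 3, where the ratio was 0.67 (adjusted p = 0.128), DMSO replicate 2 (0.92, adjusted p = 0.0735) and DMSO replicate 3 (0.98, adjusted p = 0.052). The counts behind it were small, 20 to 25 per DMSO library.

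Von Willebrand factor, the product of vwf, is kept in storage granules of endothelial cells and, in mammals, of megakaryocytes, and tethers platelets at wounds. Its libraries read 33.3, 36.5 and 35.4 CPM at 0 hpa, 9.05, 11.2 and 8.87 with DMSO, 8.91, 6.7 and 7.97 with 2ME, 22.7, 21.1 and 25.2 with echinomycin, and 13.4, 14.7 and 15.5 with IWR-1. The 5 groups formed 4 separate levels: 0 hpa on top, then echinomycin, then IWR-1, then DMSO and 2ME, which overlapped. With DMSO vwf fell by 1.85 ± 0.11 against 0 hpa (adjusted p = 4.53e-10). It rose by 1.24 ± 0.11 with echinomycin (adjusted p = 2.68e-07), a 2.36-fold difference that left it at 65.5% of the 0 hpa mean, and by 0.58 ± 0.12 with IWR-1 (adjusted p = 7.42e-04). With 2ME the ratio was -0.30 (95% interval -0.57 to -0.03, adjusted p = 0.0697), not called; without 2ME replicate 1 it was -0.40 (adjusted p = 0.0414).

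EGFL7, a secreted protein of the vessel wall, has been linked in zebrafish to the opening of endothelial cords into tubes. The gene egfl7 read 25.1, 25 and 26.8 CPM at 0 hpa, 16.8, 18.8 and 16 with DMSO, 12.1, 11.6 and 10.5 with 2ME, 17.7, 16.9 and 19.9 with echinomycin, and 12.1, 13.7 and 15.9 with IWR-1. Here the order of the groups was different from that of vwf: DMSO and echinomycin overlapped below 0 hpa, and the 2ME and IWR-1 libraries lay below all DMSO libraries. From 0 hpa to DMSO egfl7 fell by 0.57 ± 0.1 (adjusted p = 1.27e-04), and its 95% interval of -0.80 to -0.34 lay apart from the intervals of the other 9 genes. It fell further by 0.59 ± 0.11 with 2ME (adjusted p = 6.55e-04), a call that held in 15 of 15 alternatives. The echinomycin ratio was 0.08 (95% interval -0.15 to 0.31, adjusted p = 0.561). With IWR-1 egfl7 fell by 0.31 ± 0.1 (adjusted p = 0.0255), but this call held in 7 of 15 alternatives, with adjusted p from 0.00833 to 0.303. It was -0.15 against library size alone (adjusted p = 0.303), and was also lost by limma, with upper-quartile factors, with only the 2 groups fitted, without DMSO replicate 1 or 2 (-0.31 and -0.23) and without IWR-1 replicate 1 or 2 (-0.22 and -0.30).

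**Figure D2:**
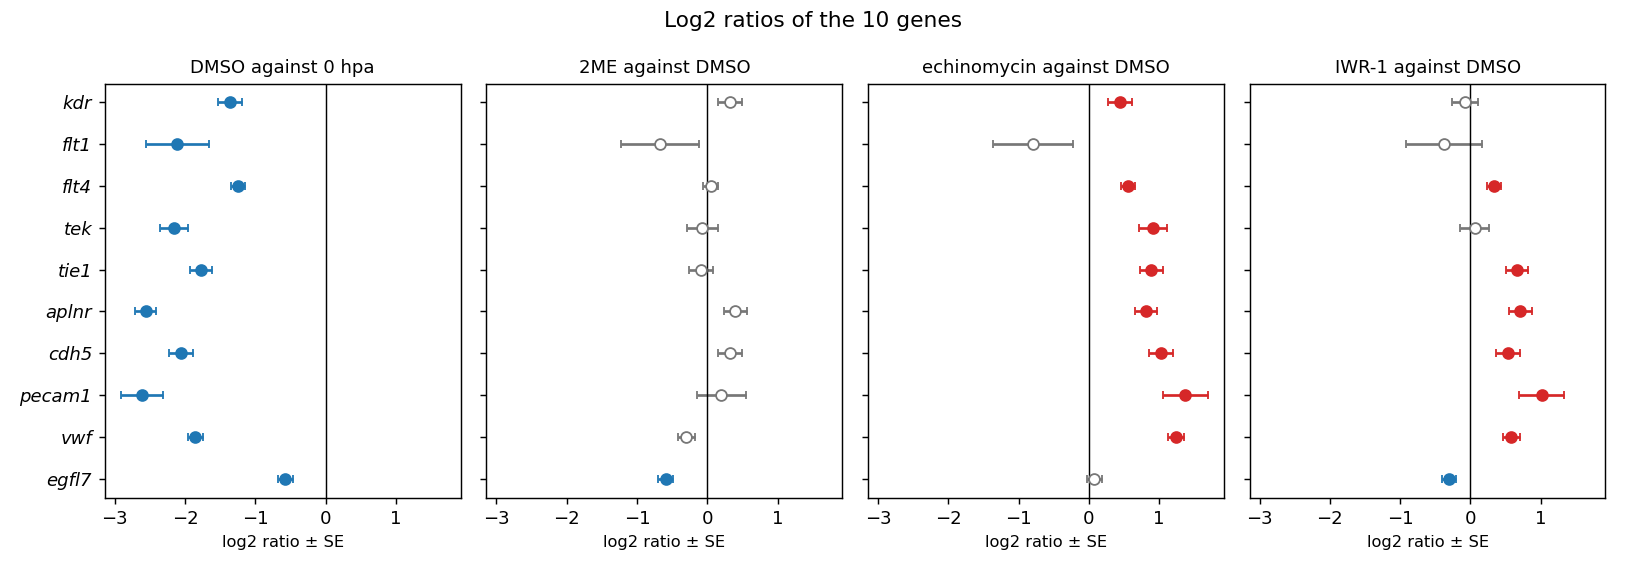
Log2 ratios of the 10 genes (horizontal axes, points with bars of 1 SE) for DMSO against 0 hpa and for each compound against DMSO, with filled points for genes called higher (red) or lower (blue) and open points for genes not called. The 10 points of the first panel are all left of 0, egfl7 is nearest to 0 at -0.57, and in the echinomycin panel 8 filled points lie between 0.44 and 1.37.

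Against the tail at amputation, all 10 genes were also lower with each compound, and every such library was below every 0 hpa library. As with DMSO, flt1 adds no weight here, because the filter kept it through 0 hpa alone. With 2ME 27.9% of all tested models were called lower and 31.4% lay lower without overlap, with echinomycin 28.2% and 30.6%, and with IWR-1 28% and 30.8%. With 2ME the 10 log2 ratios ranged from -2.78 to -1.03 and with IWR-1 from -2.49 to -0.88. With echinomycin they ranged from -2.90 for flt1 to -0.50 for egfl7. As a share of the 0 hpa mean, echinomycin left egfl7 at 70.9%, vwf at 65.5% and flt4 at 62.6%, and at the other end aplnr at 29.7% and flt1 at 12.9%. These 3 comparisons and that of DMSO share the 0 hpa libraries.

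The compounds were also compared with each other at the doses given, which differ, so each value is a difference between treatments as applied. Between 2ME and echinomycin, 8 of the 10 genes were lower with 2ME, all but kdr and flt1, against 21.3% of all tested models; the same 8 lay lower without overlap, as did 26.9% of all tested models. The largest of these differences was in vwf, at -1.54 ± 0.12 (adjusted p = 2.58e-08), and the smallest in aplnr, at -0.41 ± 0.15 (adjusted p = 0.0345). The aplnr call was lost without 2ME replicate 2 or 3 (-0.37 and -0.34) or echinomycin replicate 1 (-0.28, adjusted p = 0.169). For kdr, which differed by -0.11 between these treatments, the 95% interval was -0.49 to 0.26.

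Between 2ME and IWR-1 vwf and tie1 were lower with 2ME, by 0.88 ± 0.12 (adjusted p = 4.39e-05) and by 0.75 ± 0.16 (adjusted p = 0.00324) on the log2 scale, and 11.4% of all tested models were called lower. Without overlap, vwf, flt4, tie1 and egfl7 lay lower with 2ME and kdr lay higher, as did 20.1% and 20.7% of all tested models. The flt4 ratio (-0.28, adjusted p = 0.057) was not called in the main test. It passed with RLE factors (adjusted p = 0.0482), upper-quartile factors (0.0412), library size alone (0.0409) and limma (0.0313), and in no other alternative. Leaving out IWR-1 replicate 1 raised the count of lower genes from 2 to 4, with pecam1 at -1.12 (adjusted p = 0.00862) and egfl7 at -0.37 (adjusted p = 0.024). Between echinomycin and IWR-1, vwf, kdr, tek, cdh5 and egfl7 were higher with echinomycin, 5 of the 10, against 16.2% of all tested models; the same 5 lay higher without overlap, as did 22.5%. Of these, tek differed most, by 0.86 ± 0.2 (adjusted p = 0.00296), then vwf by 0.66 ± 0.11 (adjusted p = 1.88e-04). The kdr (0.52, adjusted p = 0.0258) and cdh5 (0.51, adjusted p = 0.0223) calls each held in 12 of 15 alternatives, and both were lost without IWR-1 replicate 3, which left 3 genes. For kdr the call was also lost without IWR-1 replicate 2 or echinomycin replicate 1, and for cdh5 without IWR-1 replicate 1 or echinomycin replicate 3. For aplnr, tie1, pecam1, flt4 and flt1 no difference between echinomycin and IWR-1 was called, and for tie1, for example, the 95% interval was -0.11 to 0.58.

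Levels can be compared between genes only per length, as TPM, the deposited values that are divided by effective length. At 0 hpa aplnr was highest at 19.5 ± 0.228 TPM, followed by egfl7 at 15.7 ± 1.32 and cdh5 at 9.77 ± 0.571. Next came vwf at 4.77 ± 0.587 and tie1 at 4.54 ± 0.34 TPM, whose ranges overlapped. Lower still were flt4 at 3.84 ± 0.106, pecam1 at 3.18 ± 0.869 and tek at 2.49 ± 0.244 TPM, each overlapping with its neighbour in that order. The lowest were kdr at 1.46 ± 0.0736 and flt1 at 0.501 ± 0.193 TPM, apart from each other and from tek. In all 4 groups at 24 hpa egfl7 was highest, aplnr next and cdh5 after it, with egfl7 and aplnr apart in each, and flt1 was lowest. The ranges of aplnr and cdh5 overlapped with 2ME and with echinomycin, and did not with DMSO and IWR-1.

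The make-up of the summed TPM of the 10 genes thus differed between the groups. The share of egfl7 was 23.8 ± 0.784% at 0 hpa and 47.3 ± 2.68% with DMSO, with library ranges of 23 to 24.6% and 44.2 to 49%. With the compounds it was 34.7 ± 2.76% for 2ME, 33.7 ± 1.28% for echinomycin and 33 ± 1.52% for IWR-1, in each case below every DMSO library and above every 0 hpa library. The share of aplnr was 29.8 ± 1.66% at 0 hpa, 14.9 ± 1.94% with DMSO, 21.7 ± 0.177% with 2ME, 17.7 ± 2.52% with echinomycin and 21.2 ± 1.05% with IWR-1. The share of vwf was 7.24 ± 0.477% at 0 hpa, 5.91 ± 0.601% with DMSO and 9.43 ± 0.278% with echinomycin, without overlap between these 3 groups. Within groups, 1 library often led in most genes: 2ME replicate 1 was the highest of its group in 9 of 10 genes, and IWR-1 replicate 1 the lowest of its group in 8. DMSO replicate 3 and echinomycin replicate 2 were each the lowest of their group in 7 of 10.

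**Figure D3:**
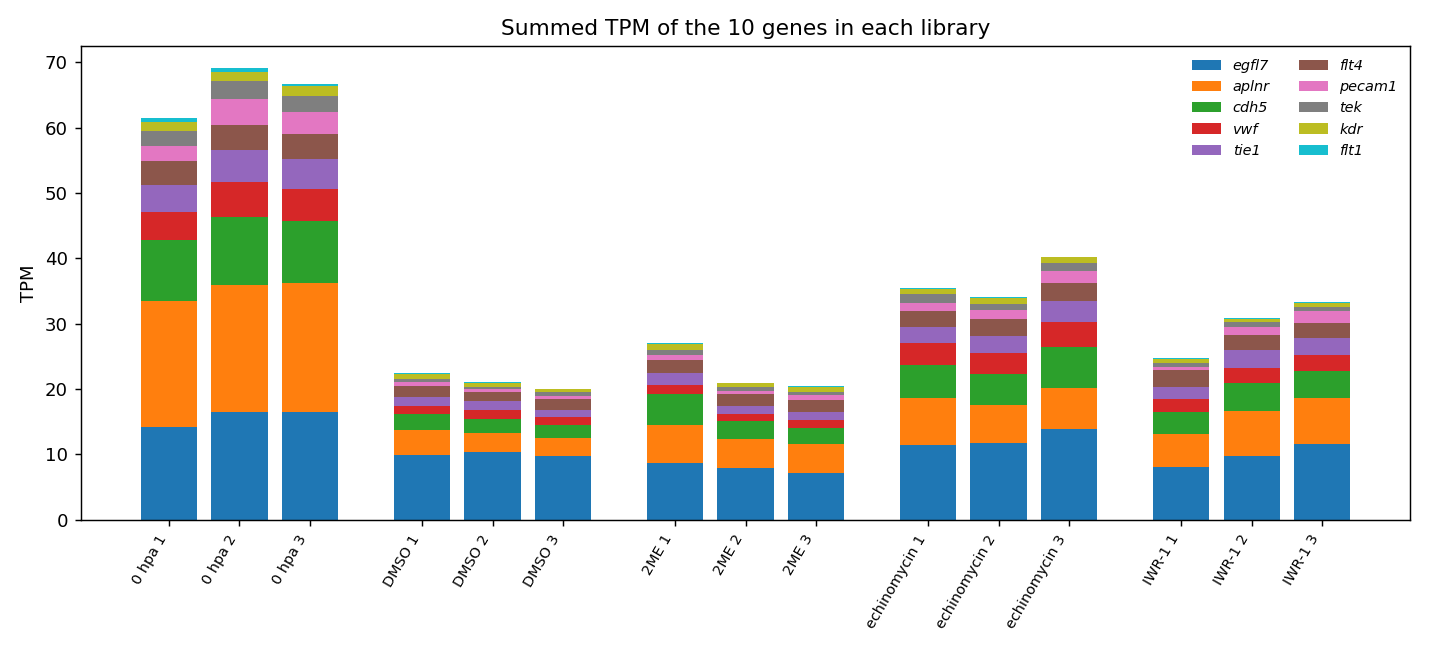
Summed TPM of the 10 genes, without TMM scaling, in each of the 15 libraries (vertical axis from 0), with 1 coloured segment per gene. The 0 hpa bars reach 61.5 to 69.1 TPM and the DMSO bars 20 to 22.5 TPM, and the egfl7 segment at the base makes up 44.2 to 49% of each DMSO bar.

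A list of vessel ligands and co-receptors was examined next. Beside those of these receptors it holds other genes, among them jag1, jag2, dll4, pdgfb, gdf2, sema3e and angptl4. It gave 19 tested models, of which 5 were higher and 11 lower with DMSO than at 0 hpa. The 5 include jag1, pdgfb and gdf2, and the 11 include sema3e, jag2 and angptl4. Of all tested models 32.2% were higher and 30.8% lower in this comparison. The median log2 ratio of the list was -0.62, beside 0.001 for all tested models. Of the 4 VEGF genes, vegfa and vegfc were lower with DMSO than at 0 hpa, vegfb was higher and vegfd was not called. The gene vegfa, whose product binds the receptors of kdr and flt1, read 7.89, 10.4 and 7.06 CPM at 0 hpa, 2.08, 1.78 and 2.51 with DMSO, 4.73, 2.96 and 3.37 with 2ME, 3.19, 5.48 and 4.22 with echinomycin, and 4.84, 4.49 and 5.32 with IWR-1. Every library with a compound was above every DMSO library and below every 0 hpa library. It fell by 1.99 ± 0.23 from 0 hpa to DMSO (adjusted p = 9.78e-07), and rose against DMSO by 0.79 ± 0.24 with 2ME (adjusted p = 0.0188), 1.01 ± 0.24 with echinomycin (adjusted p = 0.00184) and 1.19 ± 0.23 with IWR-1 (adjusted p = 6.23e-04).

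The gene vegfb, whose product binds VEGFR1 in mammals, was the reverse: 5.98, 6.63 and 6.21 CPM at 0 hpa and 9.95, 11 and 10.4 with DMSO. It rose by 0.74 ± 0.15 from 0 hpa to DMSO (adjusted p = 3.16e-04), and each compound left it lower than DMSO, by 0.43 to 0.48 on the log2 scale. The VEGFR3 ligand vegfc read 4.01, 3.82 and 3.59 CPM at 0 hpa and 0.73, 1.06 and 0.538 with DMSO, a fall of 2.29 ± 0.3 (adjusted p = 4.74e-06), and was not called with any compound. The other VEGFR3 ligand, vegfd, was at 3.32, 2.84 and 2.02 CPM with DMSO and at 4.6, 4.61 and 4.38 with 2ME, a rise of 0.74 ± 0.22 (adjusted p = 0.0187), and was called in neither of the other compounds. Of the co-receptors, nrp2, which works with VEGFR3, read 8.46, 10.8 and 8.09 CPM at 0 hpa, 3.09, 1.54 and 2.29 with DMSO and 4.53, 6.35 and 7.4 with echinomycin. It fell by 2.00 ± 0.26 from 0 hpa to DMSO (adjusted p = 3.71e-06) and rose by 1.41 ± 0.26 with echinomycin (adjusted p = 2.64e-04). The gene nrp1, which works with VEGFR2, gave 0.05 ± 0.15 from 0 hpa to DMSO, not called, and was called with IWR-1 alone, where it rose by 0.44 ± 0.15 (adjusted p = 0.0217).

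For the Tie receptors, angpt1, which activates TIE2, read 7.06, 8.06 and 9.37 CPM at 0 hpa and 2.7, 4.52 and 3.36 with DMSO, a fall of 1.20 ± 0.26 (adjusted p = 6.50e-04). With IWR-1 it fell by a further 0.79 ± 0.28 (adjusted p = 0.0326). The gene angpt2, whose product blocks or activates TIE2 depending on the setting, read 4.77, 5.99 and 7.36 CPM at 0 hpa, 1.69, 1.92 and 1.03 with DMSO, 2.76, 3.56 and 2.85 with 2ME and 2.77, 2.44 and 3.08 with echinomycin. This model fell by 1.97 ± 0.23 from 0 hpa to DMSO (adjusted p = 9.55e-07), and rose by 0.99 ± 0.23 with 2ME (adjusted p = 0.0047) and 0.84 ± 0.24 with echinomycin (adjusted p = 0.00697). A second model of the same symbol stayed at or below 0.796 CPM in every library and near the floor at 24 hpa, so no ratio is given for it. The gene angpt4 was at 0.122 to 0.212 CPM at 0 hpa, near the floor, and at 1.11 to 1.97 CPM with DMSO. With echinomycin it was lower by 1.71 ± 0.48 (adjusted p = 0.00661). Its echinomycin libraries differed widely, at 0.925, 0.261 and 0.0993 CPM, the last of them below the floor, so the size of this ratio is uncertain. The related angptl4 was not called with echinomycin or 2ME and fell by 1.20 ± 0.13 with IWR-1 (adjusted p = 3.05e-06).

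For the apelin receptor, apln read 3.5, 3.29 and 2.37 CPM at 0 hpa, 0.562, 0.481 and 1.08 with DMSO and 1.11, 1.52 and 2.63 with echinomycin. It fell by 2.08 ± 0.4 from 0 hpa to DMSO (adjusted p = 2.49e-04) and rose by 1.28 ± 0.41 with echinomycin (adjusted p = 0.0163), and was called with neither of the other compounds. The second apelin receptor ligand, apela, fell by 0.79 ± 0.32 from 0 hpa to DMSO (adjusted p = 0.0412), at 0.914 to 1.63 CPM with DMSO, and was not called with any compound. Among other vessel ligands, the repellent sema3e, which acts on endothelial cells through plexin D1 in mouse, fell by 1.81 ± 0.13 from 0 hpa to DMSO and rose with all 3 compounds, by 0.66 ± 0.13 (2ME), 1.08 ± 0.13 (echinomycin) and 1.04 ± 0.13 (IWR-1). The Notch ligand jag1 rose by 1.35 ± 0.075 from 0 hpa to DMSO and fell with all 3, by 0.20 ± 0.072, 1.25 ± 0.074 and 0.71 ± 0.073. Another Notch ligand, jag2, fell by 0.57 ± 0.069 from 0 hpa to DMSO and rose by 0.53 ± 0.068 with echinomycin. The tip-cell Notch ligand dll4 was not called from 0 hpa to DMSO and rose by 0.62 ± 0.11 with echinomycin and 0.35 ± 0.11 with IWR-1. The mural-cell attractant pdgfb rose by 0.33 ± 0.13 from 0 hpa to DMSO, and by 1.41 ± 0.12 with echinomycin and 0.44 ± 0.12 with IWR-1. Of the BMP ligands, gdf2 stayed under 1 CPM in every library, with 1 library at 0, and bmp10 was at or near 0 and was not tested.

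**Figure D4:**
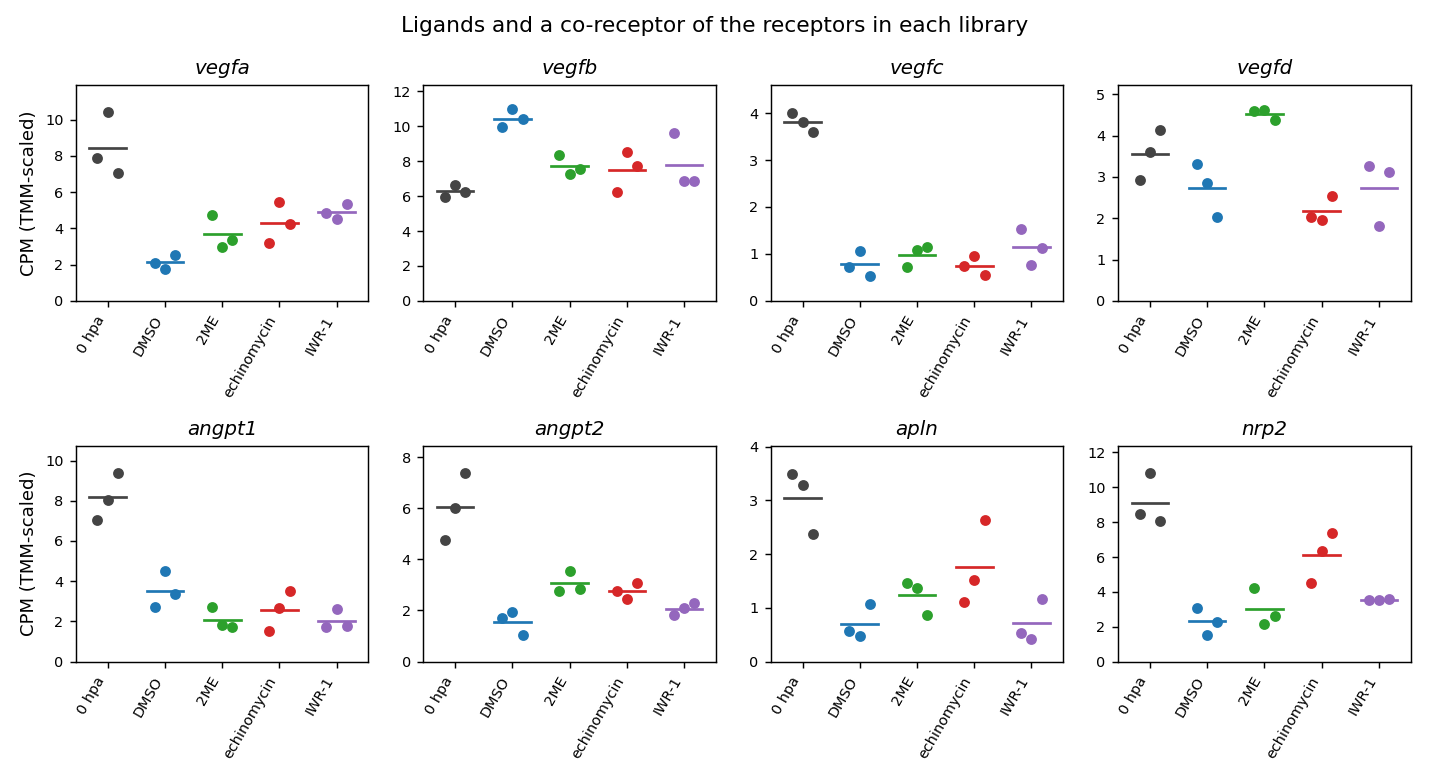
CPM after TMM scaling (vertical axes, from 0) of 7 ligands and the co-receptor nrp2 in each library, with 1 point per library and a line at each group's mean. The plot shows vegfa, vegfc, angpt1, angpt2, apln and nrp2 lower with DMSO than at 0 hpa and vegfb higher, at 9.95 to 11 CPM against 5.98 to 6.63 CPM; the angpt2 panel is the model at 4.77 to 7.36 CPM at 0 hpa.

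Endothelial transcription factors, 25 tested models, gave 2 higher and 15 lower with DMSO than at 0 hpa, and against DMSO 4 higher and 6 lower with 2ME, 13 and 1 with echinomycin, and 8 and 1 with IWR-1. Of all tested models, 32.2% and 30.8% were called higher and lower in the first of these comparisons, 14% and 16.5% with 2ME, 24.6% and 27% with echinomycin, and 19.9% and 22.4% with IWR-1, and these shares also stand beside the lists that follow. The median log2 ratios of the factors in those comparisons were -0.58, -0.11, 0.51 and 0.35, beside 0.001, -0.021, 0.014 and -0.016 for all tested models. With 2ME the counts of the factors were thus near the background. The ETS factor fli1, which in frog and mouse acts high in endothelial development, read 28.6, 30.4 and 34.3 CPM at 0 hpa, 9.38, 8.66 and 7.44 with DMSO, 10, 7.2 and 8.63 with 2ME, 15.6, 14.6 and 16.5 with echinomycin, and 11.2, 13.4 and 13.9 with IWR-1. Its echinomycin and IWR-1 libraries were above every DMSO library and the 2ME libraries overlapped with DMSO, and it rose by 0.88 ± 0.13 with echinomycin (adjusted p = 2.84e-05) and 0.60 ± 0.13 with IWR-1 (adjusted p = 0.00138). The HIF2-alpha gene epas1 fell by 2.20 ± 0.14 from 0 hpa to DMSO and rose with all 3 compounds, by 0.96 ± 0.14 (2ME), 0.90 ± 0.14 (echinomycin) and 1.06 ± 0.14 (IWR-1). The venous factor nr2f2 fell by 1.35 ± 0.12 and rose by 0.49 ± 0.13 with echinomycin and 0.50 ± 0.12 with IWR-1. The flow-responsive klf2 was not called from 0 hpa to DMSO, read 9.66, 6.74 and 9.55 CPM with DMSO and 2.68, 2.64 and 1.97 with 2ME, a fall of 1.83 ± 0.17 (adjusted p = 1.86e-06), and rose by 0.43 ± 0.15 with echinomycin. The Notch target hey1 fell with each compound, by 1.06 ± 0.09, 1.43 ± 0.092 and 1.34 ± 0.092, and mef2c fell by 2.27 ± 0.17 from 0 hpa to DMSO and was called with none. The lymphatic and endothelial factor sox18 rose by 0.61 ± 0.087 against DMSO with echinomycin and was not called with the other compounds, and its relative sox7 rose by 0.90 ± 0.13 with IWR-1 and was not called with the others. Of further named factors, klf4 rose with each compound, by 0.66 ± 0.14, 1.18 ± 0.14 and 0.90 ± 0.14, lyl1 fell by 0.66 ± 0.16 with 2ME and rose by 0.80 ± 0.14 with echinomycin, and foxo1 rose by 0.34 ± 0.057 with 2ME and 0.25 ± 0.058 with IWR-1.

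Other endothelial genes, 44 tested models, gave 5 higher and 36 lower with DMSO than at 0 hpa, a median log2 ratio of -1.62. Against DMSO they gave 9 higher and 2 lower with 2ME, 32 and 4 with echinomycin, and 18 and 3 with IWR-1, with medians of 0.21, 0.85 and 0.58. The 9 of 44 higher with 2ME stand beside 14% of all tested models, the 32 with echinomycin beside 24.6% and the 18 with IWR-1 beside 19.9%. The sphingosine phosphate receptor s1pr1 fell by 2.66 ± 0.18 from 0 hpa to DMSO (adjusted p = 1.50e-09) and rose by 0.52 ± 0.19 with 2ME (adjusted p = 0.0496), 0.76 ± 0.19 with echinomycin and 0.98 ± 0.19 with IWR-1. The scavenger receptor stab2, of venous and lymphatic endothelium in mouse, read 94.1, 100.1 and 88.2 CPM at 0 hpa, 28, 23.2 and 23.4 with DMSO, 23.6, 16.6 and 13.2 with 2ME, 66, 61.5 and 79.3 with echinomycin, and 32.8, 27.9 and 30.1 with IWR-1. It rose by 1.47 ± 0.15 with echinomycin (adjusted p = 6.47e-07) and fell by 0.48 ± 0.16 with 2ME (adjusted p = 0.0281). The semaphorin receptor plxnd1 fell by 1.64 ± 0.12 from 0 hpa to DMSO and rose by 0.81 ± 0.12 with echinomycin and 0.46 ± 0.12 with IWR-1. The caveolae gene cav1, which other cell types also express, rose by 1.74 ± 0.12 with echinomycin, to 109, 84 and 105 CPM. The Notch receptor notch1 rose with each compound, by 0.78 ± 0.1, 1.20 ± 0.1 and 0.89 ± 0.1, after a fall of 0.95 ± 0.1 from 0 hpa to DMSO. The arterial ephrin efnb2 fell by 0.40 ± 0.087 and rose by 0.49 ± 0.086 with echinomycin and 0.68 ± 0.085 with IWR-1, rasip1 fell by 1.40 ± 0.13 and rose by 1.00 ± 0.13 with echinomycin, and pde2a fell by 1.31 ± 0.13 and rose by 0.44 ± 0.14 with 2ME. In the direction opposite to most of the list, dusp5 rose by 2.11 ± 0.21 from 0 hpa to DMSO, robo4 fell by 0.56 ± 0.077 with echinomycin, unc5b by 0.86 ± 0.093 and ccm2l by 0.82 ± 0.081. These 3 genes also fell with IWR-1, by 0.24 ± 0.076, 0.61 ± 0.092 and 0.60 ± 0.08, and with 2ME robo4 and unc5b rose by 0.34 ± 0.075 and 0.27 ± 0.092 while ccm2l fell by 0.53 ± 0.08. The TNF receptor gene tnfrsf1a, which many cell types express, rose by 1.20 ± 0.074 from 0 hpa to DMSO.

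Markers of cells found in or around vessels moved as well. Of 11 tested mural cell models, 1 was higher and 7 lower with DMSO than at 0 hpa, and the list summed to 396 to 408 CPM at 0 hpa, 182 to 199.5 with DMSO, 197 to 225 with 2ME, 246 to 272 with echinomycin and 257 to 263 with IWR-1. Among them mcam, which endothelial cells also express, read 71.8, 73.5 and 81.6 CPM at 0 hpa, 15.6, 15.5 and 9.9 with DMSO and 33, 33 and 37.4 with echinomycin, and rose by 1.34 ± 0.16 with echinomycin and 0.82 ± 0.16 with IWR-1. The endothelin receptor ednra rose by 1.13 ± 0.13 and 0.72 ± 0.13 with the same compounds, notch3 by 0.24 ± 0.071 and 0.66 ± 0.071, as well as by 0.36 ± 0.071 with 2ME, and the pericyte receptor pdgfrb by 1.30 ± 0.28 with both, from 0.627 to 0.914 CPM with DMSO. The smooth muscle gene acta2 fell by 0.44 ± 0.18 with echinomycin and rose by 1.35 ± 0.16 with IWR-1, myh11 fell by 0.77 ± 0.24 with 2ME, and higd1b was at 0 in all libraries. Of 19 tested erythroid models 19 were lower with DMSO, and the list summed to 6331 to 26368 CPM at 0 hpa, the top of which is replicate 1 alone, 470.0 to 589.9 with DMSO, 337 to 516 with 2ME, 828 to 1714 with echinomycin and 892 to 1663 with IWR-1. The summed erythroid level was thus higher in each echinomycin and IWR-1 library than in any DMSO library. Thrombocyte markers, 8 tested models, gave 1 higher and 6 lower with DMSO, with thpo at 0 in the echinomycin libraries. They summed to 204 to 273 CPM at 0 hpa, 139 to 146 with DMSO, 113 to 125 with 2ME, 210.4 to 250.2 with echinomycin and 171 to 175 with IWR-1. The largest part of these sums was itgb3, at 124 to 131 CPM at 0 hpa, 85.5 to 90.7 with DMSO and 129 to 159.6 with echinomycin. Not all markers followed the sum: gp1bb read 6.1 to 22.4 CPM at 0 hpa and 1.74 to 3.18 with echinomycin. Likewise nfe2 read 5.36 to 19.1 CPM at 0 hpa and 0.555 to 1.34 with echinomycin.

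Leukocyte markers, 19 tested models, ran the other way from 0 hpa to DMSO, with 16 higher and 1 lower. They summed to 190.5 to 201 CPM at 0 hpa, 538 to 573 with DMSO, 337 to 357 with 2ME, 673 to 828 with echinomycin and 554 to 598 with IWR-1. Against DMSO 12 of the 19 were lower with 2ME, and 15 were higher and 1 lower with echinomycin, so the leukocyte list moved with the 8 vessel genes for echinomycin and against them from 0 hpa to DMSO. Skeletal muscle markers, 11 tested models, were lower with DMSO than at 0 hpa in 11 and higher with each compound than with DMSO in 10, and summed to 2195 to 3583 CPM with 2ME, 5108 to 6206 with echinomycin and 4419 to 5032 with IWR-1. Notochord markers, 6 tested models, gave 2 higher and 4 lower with DMSO than at 0 hpa, and against DMSO 0 and 3 with 2ME, 6 and 0 with echinomycin, and 4 and 0 with IWR-1. They summed to 4299 to 4549.6 CPM at 0 hpa, 1856 to 1898 with DMSO, 1346 to 1584 with 2ME, 4121 to 5248 with echinomycin and 1912 to 1965 with IWR-1. Most of this sum was the collagen gene col2a1, at 3678 to 3868 CPM at 0 hpa, 1529.7 to 1593 with DMSO and 3369 to 4241 with echinomycin. From 0 hpa to DMSO shh and tbxt went against the sum. The former read 14.8 to 18.3 and 24.3 to 29.9 CPM, and the latter 3.82 to 5.29 and 5.47 to 7.59 CPM. Epidermis markers, 11 models, gave 7 and 3 from 0 hpa to DMSO, 4 and 3 with 2ME, and 2 and 6 with echinomycin and with IWR-1, and summed to 10367 to 13179.7 CPM over all libraries. Neural tube markers, 12 models, gave 1 and 9 from 0 hpa to DMSO, 1 and 6 with 2ME, 2 and 6 with echinomycin, and 1 and 4 with IWR-1. Their sum was 252 to 259 CPM at 0 hpa, 140.5 to 179 with DMSO, 125 to 137 with 2ME, 94.9 to 107 with echinomycin and 126 to 143 with IWR-1, so it was lower with echinomycin, where the muscle and notochord sums were higher. The part of these cell types in the differences of the 10 vessel genes was not tested.

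**Figure D5:**
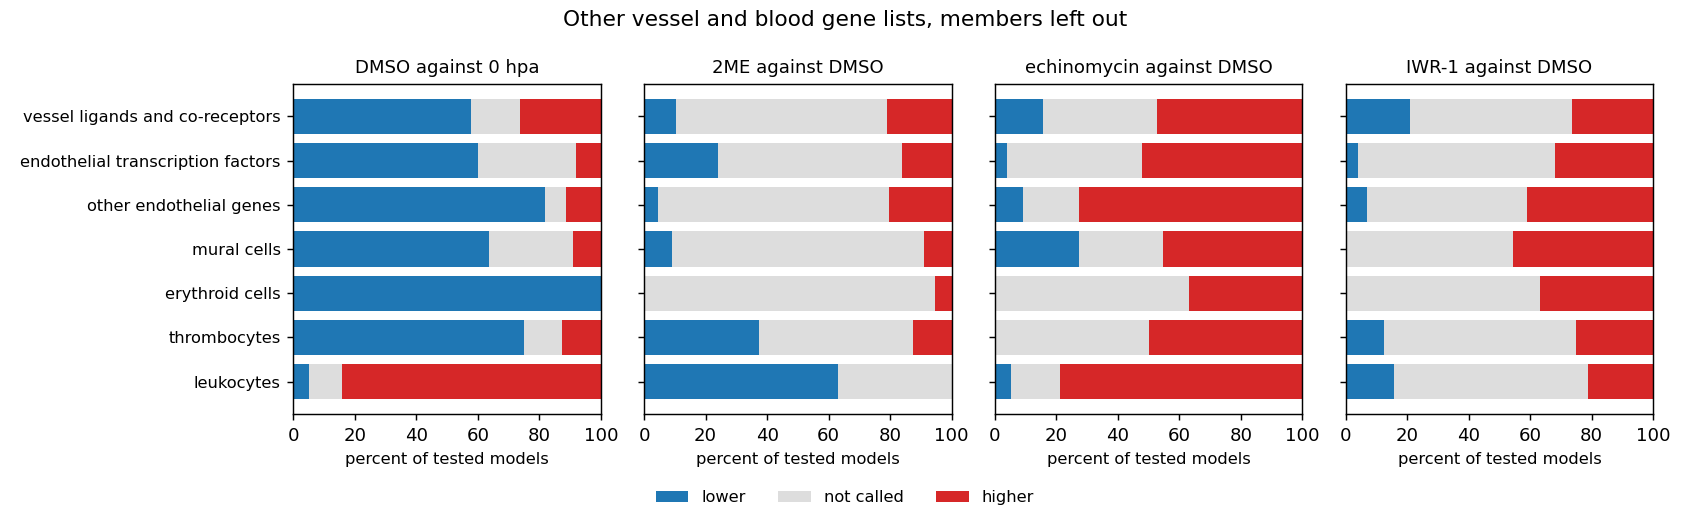
Percent of tested models of 7 gene lists called lower (blue), not called (grey) or higher (red), in 4 comparisons (horizontal axes from 0 to 100), with the 10 vessel genes left out of every list. Erythroid markers are lower with DMSO in 19 of 19 models and leukocyte markers higher in 16 of 19, and other endothelial genes are higher with echinomycin in 32 of 44.

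Over all 15 libraries each of the 10 genes followed the mean of their standardised levels, with Pearson correlations of log2(CPM + 0.5) from 0.824 for flt1 to 0.977 for cdh5. These points share the step from 0 hpa to 24 hpa, and the mean contains the gene itself. Over the 12 libraries at 24 hpa the correlation was 0.936 for tie1, 0.930 for vwf, 0.923 for cdh5 and 0.895 for pecam1, 0.585 for egfl7, 0.504 for kdr and -0.043 for flt1. The genes outside the 10 most alike to their mean over the 15 libraries were rab3il1 (r = 0.988), cd81 (0.987), bag2 (0.985), pdk1 (0.984), pgam2 (0.983), palm2akap2 (0.983), lox (0.982) and col3a1 (0.982). Over the 12 libraries at 24 hpa they were dnajb4 (0.966), pcdh18 (0.966), cuedc1 (0.965), col8a1 (0.964), fli1 (0.962), tbxt (0.958), bricd5 (0.958) and plxnd1 (0.955). Of these, fli1 and plxnd1 are also in the endothelial lists, and col8a1 and tbxt are in the notochord list. For 9 of the 10 genes the single most alike gene is given: fli1 for tie1 (0.986) and for pecam1 (0.972), myct1, an endothelial gene in mouse, for cdh5 (0.984), pid1 for tek (0.983), casq1 for aplnr (0.984), hgd for flt4 (0.986), spata18a for kdr (0.961), rdx for egfl7 (0.966) and fabp7 for flt1 (0.941). Among them casq1 is in the skeletal muscle list and fabp7 in the neural tube list. These correlations describe the 15 libraries, which share their groups, and carry no test.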

How the data were processed

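Total RNA of 15 samples, grouped by their titles, was sequenced as paired ends on an Illumina HiSeq after phenol:chloroform extraction, DNaseI treatment and NEBNext Ultra library preparation, per the labels' protocols. Trim Galore 0.6.5, kallisto and edgeR are the programs that the submitters' processing notes name. For kallisto, edgeR and the genome build the version was not given in the sources used here, though model names carry the prefix XT-9_1. The deposited estimated counts are kallisto's, per the file headers with 1 value for each gene model. Of them 21.4% are not whole numbers because reads that match several models are divided among them. Of the 10 genes, flt4 and tek had such counts in 15 of 15 libraries and aplnr in 12, so part of their reads also matched another model. The deposited TPM values divide those counts by effective length, per the file headers. They were used without TMM scaling, and only for levels between genes and for sums over the 10 genes. The authors also deposited a CPM table, which holds 15892 models and 9 of the 10 genes, not flt1, and served 1 alternative.

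The rounded counts went into edgeR 4.0.16 under R 4.3.3, with 15 libraries in 1 fit with 1 coefficient per group, TMM factors (0.909 to 1.07), the low-count filter filterByExpr (at least 10 counts, 15 in total), and its quasi-likelihood F test. The biological coefficient of variation common to all models was 0.0936, on 10 residual degrees of freedom. Benjamini-Hochberg adjustment ran over all 18823 tested models in each comparison, with calls made under 0.05. The procedure was tested on simulated data, and the outcome of that test is not reported here. Intervals of ratios have a level of 0.95. The genes, the lists of vessel, blood and tissue markers and the comparisons were chosen with earlier results of these data known. Named genes are the 10 genes, every model of the ligand list, up to 3 models per comparison and other list with the smallest adjusted p (called, and reaching 1 CPM in some group), and the 8 genes most alike to the mean of the 10 by Pearson correlation of log2(CPM + 0.5). For the blood and tissue lists counts and summed levels are given in place of single genes, apart from itgb3, gp1bb, nfe2, col2a1, shh and tbxt. Alternatives were RLE, upper-quartile and no scaling factors, no filter, a mean of at least 10 counts, DESeq2 1.42.0, limma 3.58.1 on the deposited CPM table as log2(CPM + 1), a block for replicate number, a fit of the compared groups alone, a log2 ratio of at least 1, and leaving out each library. Python 3.11.15 made the tables (numpy 2.4.6, scipy 1.17.1, pandas 2.3.3) and drawings (matplotlib 3.10.9).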

Additional observations from a re-analysis of the deposited data

How the results depend on the processing

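Of the log2 ratios of the 10 genes, all 148 recomputed for DMSO against 0 hpa, and all 148 for each compound against 0 hpa, kept their direction and call. The gene flt1, kept in the main test through its 0 hpa libraries alone, has no value where a filter or the deposited CPM table leaves it out. With 2ME against DMSO, genes called higher were 0 in the main test, 1 by DESeq2, 2 against library size alone and 2 by limma (0 to 2 on leaving out a library), and genes called lower were 1 (1 to 2). In either direction, library size alone called 6148 of 18823 tested models in this comparison. With echinomycin against DMSO 8 were higher (7 to 8). With IWR-1 against DMSO 6 were higher (4 to 6) and 1 lower (0 to 1), and 0 were lower against library size alone, by limma, with only the 2 groups compared or with upper-quartile factors. Between compounds, genes lower with 2ME than with IWR-1 were 2 (2 to 4; 4 with upper-quartile factors) and genes higher with echinomycin than with IWR-1 were 5 (3 to 5). Asking for a log2 ratio of at least 1 left 0 lower for 2ME, 3 higher for echinomycin, 1 higher and 0 lower for IWR-1 against DMSO, 5 lower for echinomycin against 0 hpa, 2 lower for 2ME against echinomycin, 0 lower for 2ME against IWR-1 and 0 higher for echinomycin against IWR-1. The share of all tested models at that cut was counted for DMSO against 0 hpa alone. These counts therefore have no background beside them.

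The ratios that changed sign were all uncalled. For 2ME against DMSO, tek (-0.07) gave 0.06 against library size alone, 0.05 by limma and -0.24 to 0.15 on leaving out a library, and tie1 (-0.09) gave 0.05, 0.03 and -0.30 to 0.03. For IWR-1 against DMSO, kdr (-0.08) gave 0.08, 0.07 and -0.26 to 0.12, and on leaving out a library flt1 (-0.38) gave -0.71 to 0.07 and tek (0.06) -0.05 to 0.28. On leaving out a library flt1 also gave -0.19 to 0.37 for 2ME against echinomycin (0.12 with all) and -0.60 to 0.01 for 2ME against IWR-1 (-0.29). Likewise tek gave -0.30 to 0.05 for 2ME against IWR-1 (-0.13), and aplnr -0.03 to 0.19 for echinomycin against IWR-1 (0.10). The cause of these changes was not tested. Counting against library size alone moved the median log2 ratio to DMSO of all models by 0.140 (2ME), 0.146 (echinomycin) and 0.159 (IWR-1); for echinomycin, upper-quartile factors moved it by 0.104.

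Replicate numbers showed no clear pairing. Same-numbered libraries of different groups had deviations correlated at -0.144 to 0.126 and other pairs at -0.138 to 0.139, and 8 of 15 libraries were on average closer to their own number. With 3 libraries per group this check cannot show that no pairing exists. With replicate number as a block the counts of called genes were as in the main test in all 10 comparisons: 10 lower for DMSO against 0 hpa, 1 lower for 2ME, 8 higher for echinomycin, and 6 higher and 1 lower for IWR-1 against DMSO. Depth limits flt1 most, with 3 to 10 counts per library at 24 hpa, then pecam1.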
